A study of Chlamydomonas reinhardtii with 9 samples.

Results

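Among 17737 loci counted in the green alga Chlamydomonas reinhardtii, 11 were chosen by their read levels: near the floor in untreated cells and higher at both doses of methylmercury. The selection was made on CPM, reads scaled to a common library size after TMM correction for library composition. A locus had to average below 0.5 CPM in the controls and at least 2 CPM at each dose, with all 6 treated libraries above all 3 controls. The loci are Cre03.g157650, Cre03.g191750, Cre08.g384950, Cre10.g442150, Cre12.g529300, Cre12.g534750, Cre13.g584700, Cre17.g716100, g11582, g11602 and g3327. Both comparisons with control chose them, so their levels and folds against control are a description with no test. The rule set no condition on the difference between the doses, but both dose means entered it, which limits that comparison too. In it 0 of 11 passed, where 0.832% of all loci did, counting either direction. With the replicate number as a block 1 of 11 passed, where 8.99% did.

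Cells were of the wild-type strain CPCC11. They were held for 2 h in artificial freshwater with no added mercury (control), with 0.05 nM methylmercury (MeHg) or with 0.5 nM MeHg, with 3 biological replicates each. The labels of the 0.05 nM samples describe the source in other words and alone name the sequencer, an Illumina HiSeq, so that dose and a submission of its own cannot be told apart. Assigned reads came to between 15138888 and 20433375 per library, and 1 read was worth 0.0433 to 0.0751 CPM.

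Methylmercury is an organic mercury compound that crosses membranes and binds the thiol groups of proteins and of small molecules such as glutathione. Chlamydomonas is a unicellular alga with a single chloroplast, and it is used as a model for photosynthesis, cilia and metal toxicity. Many of its genes give almost no mRNA under steady conditions and are transcribed when nutrients, light, mating state or stress change. In RNA from a whole culture, a larger share of cells transcribing a locus and more RNA per cell cannot be told apart.

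No role is given for any of the 11. The count files pair no identifier with a name, and the RefSeq gene table of assembly version 5.5 lists 0 symbols other than the locus tag. For the same reason the label of a photosynthetic alga could not be checked against named marker genes. Of the 11 identifiers, 8 carry the Cre numbering, spread over 6 of its number prefixes, and 3 carry g numbers. Of all loci, 30.9% carry g numbers, and of the loci below 0.5 CPM in control 60.3% do.

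The loci were low in the controls, but none was silent there. Each had between 3 and 14 reads in every control library, and 0 of 11 had a control at 0. At the doses they had 28 to 74 reads per library. A count of 3 has an exact 95% Poisson interval of 0.619 to 8.77 reads and a count of 28 one of 18.6 to 40.5, and these intervals cover counting error only. The mean levels of the 11 ran from 0.341 to 0.490 CPM in control, from 2.00 to 2.51 CPM at 0.05 nM and from 2.11 to 3.73 CPM at 0.5 nM. The highest control value of any of the loci was 0.790 CPM and the lowest treated value 1.63 CPM. By these values they are loci of low level that were several times higher with MeHg.

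**Figure D1:**
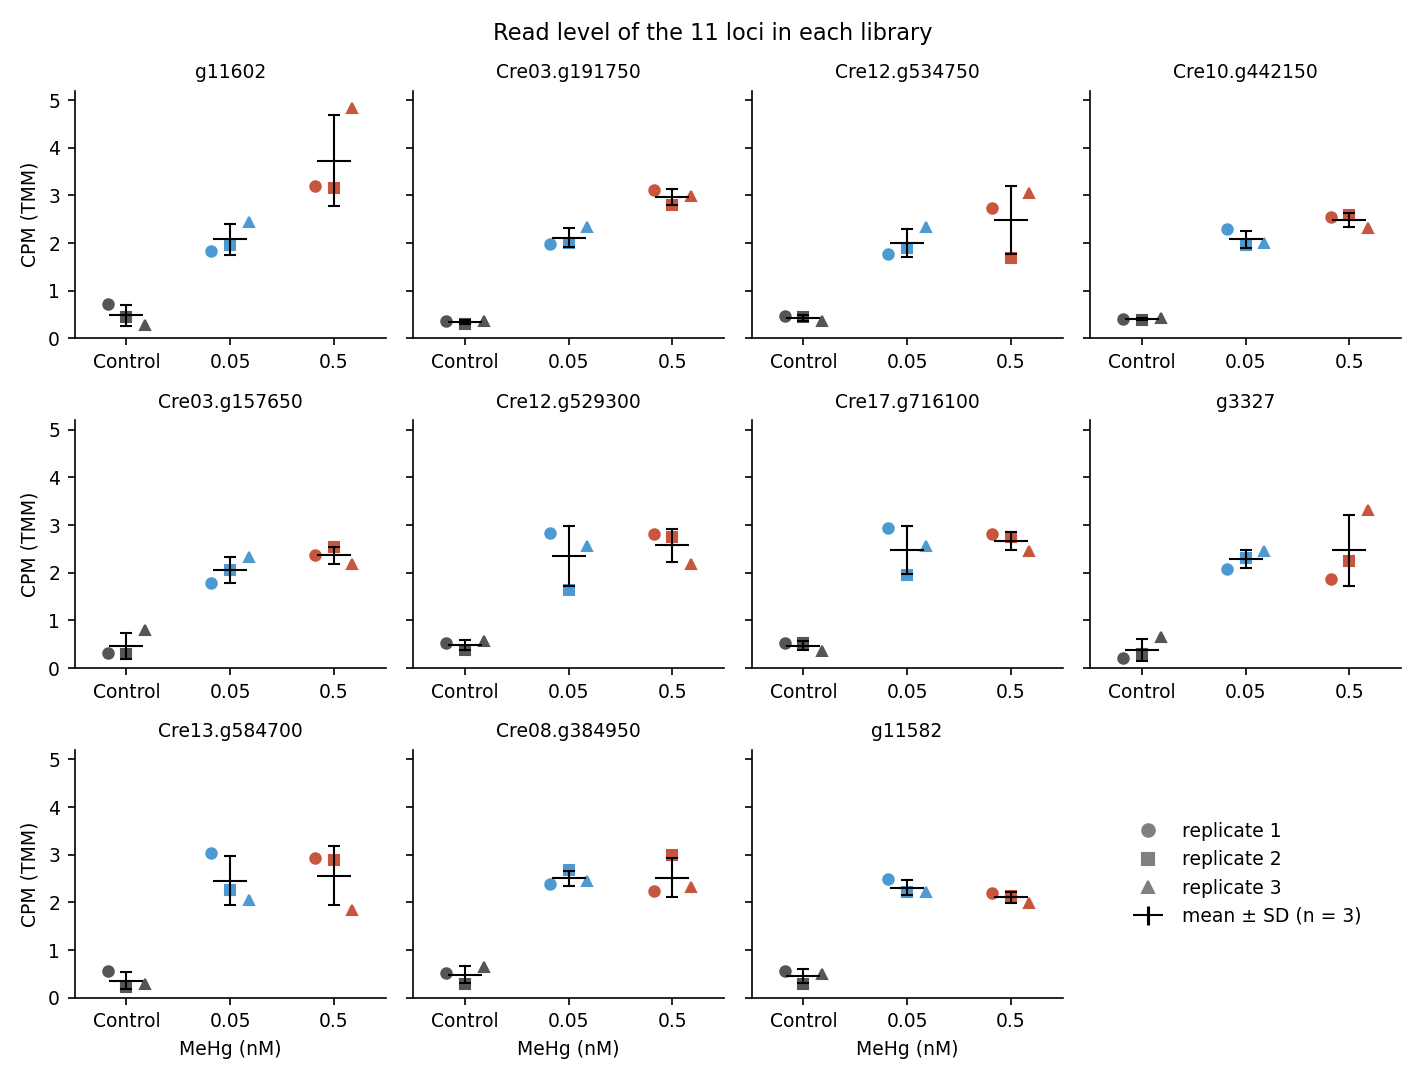
CPM of each of the 11 loci in every library (points, shaped by replicate number), for control, 0.05 nM and 0.5 nM MeHg from left to right, with mean and SD (n = 3). All control points lie at or below 0.790 CPM and all treated points at or above 1.63 CPM. The choice of the loci required treated libraries above controls within each locus and limited group means, not single libraries.

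Each locus was several times higher than in control at either dose. The ratio of its reads summed over replicates, scaled by effective library size, was 4.01 to 6.39 at 0.05 nM over control, with a median of 5.07. At 0.5 nM over control it was 4.49 to 8.64, with a median of 5.71, and 0 of 11 reached 10 at either dose. In edgeR's fit the log2 changes were 2.00 to 2.66 at 0.05 nM and 2.15 to 3.08 at 0.5 nM. Their medians were 2.32 and 2.5, where the medians of all 14778 loci tested were 0.05 and 0.07. Both comparisons use the same 3 controls. All 11 were called higher at 0.05 nM in edgeR's quasi-likelihood test, where 27.2% of loci were, and all 11 at 0.5 nM, where 31.6% were, and nothing is read from these counts because the choice used the same comparisons. Changes at least as large as the smallest of the 11 were found for 148 loci (1.001% of those tested) at 0.05 nM and for 185 (1.252%) at 0.5 nM. The rule's limits of 0.5 CPM in control and 2 CPM at each dose set a minimum to the changes of the 11. Nothing is therefore read from these ranks or from the distance of their medians to those of all loci. In the authors' deposited table the 11 have folds of 3.99 to 6.29 at 0.05 nM and 4.44 to 8.45 at 0.5 nM. The authors' FDR-corrected p in that deposited table is at most 3.08e-07 for the 11 at 0.05 nM and 7.07e-08 at 0.5 nM, and nothing is read from it, as these comparisons chose the loci.

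Scaling by library totals alone, without TMM, put the medians of the 11 loci at 2.57 for 0.05 nM and 2.78 for 0.5 nM, and those of all loci at 0.30 and 0.36. Of all loci called at 0.05 nM 74% were then higher, against 52% with TMM, and at 0.5 nM 72.4%, against 52.5%. Alignments to several places are listed apart in the deposited count files and entered no locus. As a share of assigned reads (mean ± SD, n = 3) they were 31.6% ± 10.5 in control libraries, 19.99% ± 1.45 with 0.05 nM MeHg and 22.1% ± 1.16 with 0.5 nM MeHg, with 43.7% in control replicate 3. The part of such alignments in the low control counts of the 11 was not tested.

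The locus g11602 differed most between the doses. It had 0.726, 0.450 and 0.287 CPM in control replicates 1 to 3, 1.83, 1.95 and 2.45 CPM at 0.05 nM, and 3.20, 3.15 and 4.83 CPM at 0.5 nM. The libraries of the 3 groups do not overlap, and replicate 3 at 0.5 nM stands above the others while replicate 3 of the controls is the lowest of its group. Its summed reads were 4.01 times those of the controls at 0.05 nM (exact 95% interval of the ratio 2.57 to 6.50) and 7.0 times at 0.5 nM (4.58 to 11.2). These intervals cover counting error only and leave out the spread between libraries, and the rule chose the locus on the same comparisons.

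Cre03.g191750 had the largest ratio to control of the 11. Its levels were 0.363, 0.300 and 0.359 CPM in the controls, 1.98, 2.00 and 2.34 CPM at 0.05 nM and 3.12, 2.80 and 2.98 CPM at 0.5 nM. Again no group overlaps another, and the lowest treated library was 5.46 times the highest control, the widest such gap of the 11. The ratio of summed reads was 6.11 at 0.05 nM (3.61 to 11.0) and 8.64 at 0.5 nM (5.17 to 15.5), again with intervals for counting error only.

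The doses did not overlap in Cre10.g442150 and g11582 either, with opposite directions. Cre10.g442150 had 0.415, 0.375 and 0.431 CPM in the controls, 2.29, 1.95 and 2.00 CPM at 0.05 nM and 2.55, 2.59 and 2.32 CPM at 0.5 nM. Its 0.5 nM libraries all lie above its 0.05 nM libraries. For g11582 the controls had 0.571, 0.300 and 0.503 CPM, the 0.05 nM libraries 2.49, 2.21 and 2.23 CPM and the 0.5 nM libraries 2.21, 2.14 and 1.98 CPM. All its 0.5 nM libraries lie below its 0.05 nM libraries, and it is the only locus of the 11 with a lower fitted level at 0.5 nM.

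Cre12.g529300 and Cre17.g716100 had a low replicate 2 at 0.05 nM. Cre12.g529300 had 0.519, 0.375 and 0.575 CPM in the controls, 2.84, 1.63 and 2.56 CPM at 0.05 nM and 2.81, 2.75 and 2.18 CPM at 0.5 nM. Cre17.g716100 had 0.519, 0.525 and 0.359 CPM in the controls, 2.95, 1.95 and 2.56 CPM at 0.05 nM and 2.81, 2.75 and 2.45 CPM at 0.5 nM. In both, the libraries of the doses overlap.

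Cre13.g584700 and g3327 each had the same replicate highest in all 3 groups, as had g11582 with replicate 1. Cre13.g584700 was highest in replicate 1 of each group, with 0.571, 0.225 and 0.287 CPM in the controls, 3.05, 2.27 and 2.06 CPM at 0.05 nM and 2.94, 2.90 and 1.85 CPM at 0.5 nM. For g3327 replicate 3 was the highest of each group, with 0.207, 0.300 and 0.647 CPM in the controls, 2.08, 2.32 and 2.45 CPM at 0.05 nM and 1.86, 2.24 and 3.31 CPM at 0.5 nM. The doses overlap in both Cre13.g584700 and g3327, and these were also the 2 loci that the rule kept whichever library was left out. The rule kept g11582 with 8 of the 9 libraries left out in turn.

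The remaining 3 loci lay close to a threshold of the rule. Cre03.g157650 had 0.311, 0.300 and 0.790 CPM in the controls, 1.78, 2.06 and 2.34 CPM at 0.05 nM and 2.38, 2.54 and 2.18 CPM at 0.5 nM. Its control replicate 3 was the highest control value of the group, and its lowest treated library was 2.25 times that value, the narrowest gap of the 11. Cre08.g384950 had 0.519, 0.300 and 0.647 CPM in the controls, 2.39, 2.69 and 2.45 CPM at 0.05 nM and 2.25, 3.00 and 2.32 CPM at 0.5 nM. Cre12.g534750 had 0.467, 0.450 and 0.359 CPM in the controls, 1.78, 1.90 and 2.34 CPM at 0.05 nM and 2.73, 1.68 and 3.04 CPM at 0.5 nM. In Cre12.g534750 replicate 2 at 0.5 nM lies below all the libraries at 0.05 nM, and in all 3 loci the doses overlap.

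Added over the 11 loci, the level was 3.90 to 5.24 CPM in the controls, 22.9 to 25.8 CPM at 0.05 nM and 28.5 to 29.4 CPM at 0.5 nM. The sums of the doses do not overlap, which is a description only, as both dose means entered the rule. Without g11602 the other 10 loci add up to 21.0 to 23.6 CPM at 0.05 nM and 24.6 to 25.7 CPM at 0.5 nM. The highest control library was replicate 1 for 5 loci, replicate 2 for 1 and replicate 3 for 5. At 0.05 nM the counts were again 5, 1 and 5, and at 0.5 nM 5, 3 and 3.

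The doses were also compared with each other. Because a locus had to average at least 2 CPM at each dose, the rule left out 11 loci that did so at 0.5 nM alone and 1 that did so at 0.05 nM alone. The direction and size of the dose difference within the group therefore depend on the rule and are a description. By the quasi-likelihood test of edgeR and Benjamini-Hochberg adjusted p, 0 of 11 loci passed for 0.5 nM against 0.05 nM, where 0.832% of all loci did. Of the 11, 2 had an unadjusted p under 0.05, as had 2002 loci or 13.5% of those tested. DESeq2 gave none of the 11 an adjusted p, and 1 an unadjusted p under 0.05, as 10.3% of the loci it tested had. The fitted level was higher at 0.5 nM for 10 of 11 (8 to 10 with 1 library left out), as for 52.6% of all loci, and the median log2 difference was 0.15, against 0.01 over all loci tested. Libraries of the doses did not overlap for 4 of the 11 (g11602, Cre03.g191750 and Cre10.g442150 higher at 0.5 nM, g11582 lower), as for 20.6% of all loci. The count of all loci called moved widely. It was 123 (2 higher and 121 lower at 0.5 nM), but 1328 (8.99%) with the replicate block (287 higher and 1041 lower). It was 383 without control replicate 1, 200 without 0.5 nM replicate 2 and 0 without any 1 of the other 7 libraries.

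The largest difference was that of g11602, at 3.73 ± 0.954 CPM with 0.5 nM and 2.08 ± 0.329 CPM with 0.05 nM (SD, n = 3 each). Its log2 difference was 0.83 ± 0.246 (SE; edgeR adjusted p = 0.132), with a 95% interval of 0.30 to 1.37. With the replicate number as a block it was 0.83 ± 0.207 and passed (edgeR adjusted p = 0.0174). This is 1 of 11 beside 8.99% of all loci with that block, of which 287 were called higher at 0.5 nM, as g11602 was, and 1041 lower. Over all settings that gave one, its edgeR adjusted p ran from 0.0174 to 0.458. Cre03.g191750 followed, at 2.96 ± 0.161 CPM with 0.5 nM and 2.11 ± 0.20 CPM with 0.05 nM, a log2 difference of 0.50 ± 0.169 (edgeR adjusted p = 0.197). For Cre08.g384950 the level was 2.52 ± 0.415 CPM with 0.5 nM and 2.51 ± 0.159 CPM with 0.05 nM, a log2 difference of 0.01 ± 0.203 (edgeR adjusted p = 0.991). The lowest difference was -0.12 ± 0.190 for g11582 (edgeR adjusted p = 0.867).

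Missing the threshold does not show that the doses gave equal levels. The upper ends of the 95% intervals allowed a level 1.23 to 2.59 times as high at 0.5 nM as at 0.05 nM, and for 8 of the 11 the interval reached beyond 1.5 times. The lower ends allowed a level down to 0.688 times for g11582. The tagwise biological coefficients of variation of the 11 were 0.0825 to 0.176, where the median of all loci tested was 0.119.

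**Figure D2:**
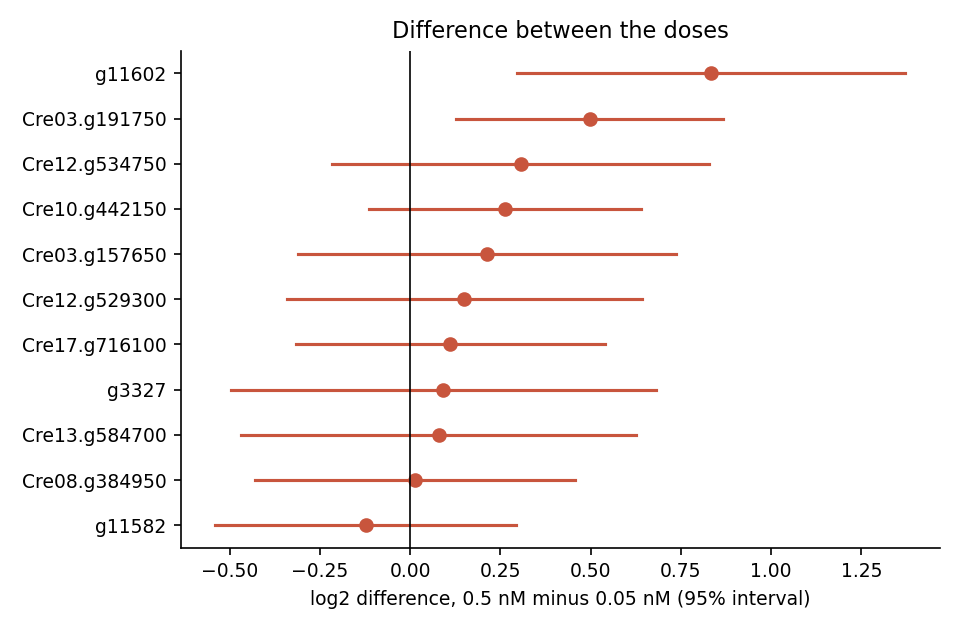
Log2 difference of 0.5 nM minus 0.05 nM MeHg from edgeR's fit for each of the 11 loci, with lines for the 95% interval. The intervals of g11602 (0.30 to 1.37) and Cre03.g191750 (0.13 to 0.87) lie above 0 before adjustment and those of the other 9 loci span it.

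Other loci lay close to both thresholds of the rule. Of all loci, 3350 (18.9%) averaged below 0.5 CPM in the controls. Among these, 12 reached 2 CPM at 0.05 nM, 22 reached it at 0.5 nM and 11 at both, and the condition on overlap removed 0 of the 11. With 1 CPM at both doses in place of 2, 102 loci passed, 101 of them without overlap. The rule gave 20 loci without control replicate 1 (10 of the 11 among them), 7 without 0.05 nM replicate 3 and 10 to 14 without any 1 of the other libraries. Just inside the control threshold lay Cre12.g529300, Cre08.g384950 and g11602, with control means of 0.490, 0.488 and 0.488 CPM. Just outside it lay Cre02.g075750 at 0.509 CPM, Cre04.g215900 at 0.532 CPM and g1915 at 0.536 CPM, which had 2.13, 3.78 and 2.15 CPM at 0.05 nM. At the treated threshold the nearest loci inside were Cre12.g534750, Cre03.g157650 and g11602, with 2.00, 2.06 and 2.08 CPM at 0.05 nM. Outside it were Cre07.g331700 with 1.96 CPM at 0.05 nM, and Cre01.g016750 and Cre10.g459050 with 1.94 and 1.91 CPM at 0.5 nM, of which Cre10.g459050 had 1.82 CPM at 0.05 nM.

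**Figure D3:**
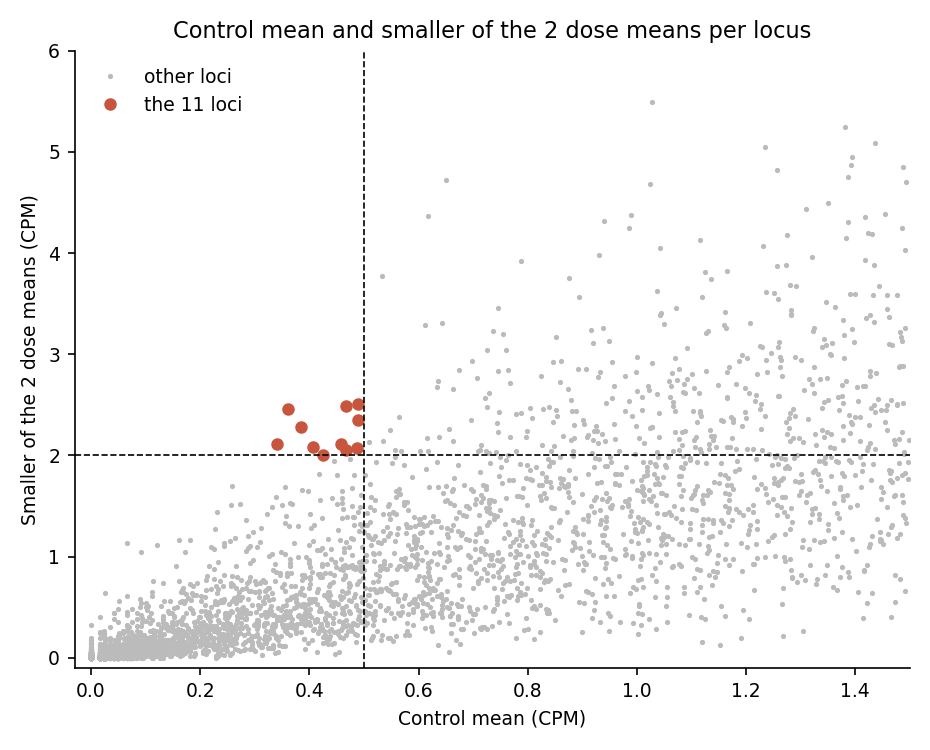
Control mean (x axis) and the smaller of the 2 dose means (y axis), both in CPM, for loci below 1.5 CPM in control and below 6 CPM at the lesser dose mean. Dashed lines mark 0.5 and 2 CPM. The 11 loci occupy the lower right corner of the selected region, with control means of 0.341 to 0.490 CPM, with other loci just below them and to their right.

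Loci without any control read did not come near the treated threshold. There were 1338 loci with 0 reads in all 3 controls, and 888 of them had 0 reads in all 9 libraries. Of the 1338, 13 had reads in all 6 treated libraries, and 0 reached 0.5 CPM at both doses. The highest of them, chosen after its values were seen, was Cre06.g282050, which had 6, 5 and 7 reads at 0.05 nM, 9, 11 and 3 reads at 0.5 nM and 0 in each control, or 0.319 and 0.382 CPM at the doses.

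Position in the genome was not used by the rule. The RefSeq table matched 11713 loci of the count files, among them 6 of the 11, and 0 of these 6 adjoined another of the 6 or overlapped a neighbour in that table. The rest of the 11, including all with g numbers, had no position, so adjacency to them could not be seen. A neighbour here is the nearest entry of that table, and a counted locus missing from it may lie between. Their 12 nearest neighbours included 11 loci of the count files, of which 10 could be tested. At 0.05 nM 4 of the 10 rose and 2 fell, where 27.2% of all loci rose and 25% fell. At 0.5 nM 4 rose and 2 fell, where 31.6% of all loci rose and 28.7% fell. The median log2 change of the 10 was 0.25 at 0.05 nM and 0.23 at 0.5 nM.

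Cre13.g584750, next to Cre13.g584700, had the largest change of the 10. It had 0.778 CPM in the controls, 2.41 CPM at 0.05 nM and 3.27 CPM at 0.5 nM, with log2 changes of 1.68 ± 0.327 (SE; edgeR adjusted p = 0.00122) and 2.12 ± 0.316 (edgeR adjusted p = 0.000135). Cre03.g191700, next to Cre03.g191750, had 1.49 CPM in the controls, 3.13 CPM at 0.05 nM and 3.68 CPM at 0.5 nM, and rose by 1.05 ± 0.197 and 1.29 ± 0.194 (edgeR adjusted p = 0.000951 and 0.000144). Both neighbours of Cre12.g534750 rose too. Cre12.g534700 did so by 0.67 at 0.05 nM and 0.73 at 0.5 nM, and Cre12.g534800 by 0.46 and 0.60 (edgeR adjusted p from 0.000155 to 0.00451).

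Both neighbours of Cre08.g384950 fell. Cre08.g384900 had 38.2 CPM in the controls, 22.3 CPM at 0.05 nM and 21.6 CPM at 0.5 nM, with log2 changes of -0.79 ± 0.190 (edgeR adjusted p = 0.0047) and -0.83 ± 0.190 (edgeR adjusted p = 0.00286). Cre08.g385000 changed by -0.83 ± 0.132 and -0.69 ± 0.131 (edgeR adjusted p = 0.000317 and 0.000753). With library totals alone only the 0.05 nM call of Cre08.g385000 held, and Cre08.g384900 came to -0.54 at either dose (edgeR adjusted p = 0.0558 and 0.0504). The neighbours of Cre03.g157650 and Cre10.g442150 did not pass, at log2 changes between -0.34 and 0.35. Cre03.g157600 did pass with the replicate block, at 0.33 and 0.36 (edgeR adjusted p = 0.0184 and 0.0103). It also passed without control replicate 1, at 0.56 and 0.60 (edgeR adjusted p = 0.0024 and 0.0012), and with library totals alone, at 0.56 and 0.63 (edgeR adjusted p = 0.0318 and 0.016). Such calls were common. With the block 4900 of 14778 loci were called higher at 0.05 nM and 5427 at 0.5 nM. Without control replicate 1 the counts were 3936 and 4704 of 14862, and with library totals alone 5905 and 6707 of 14778.

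**Figure D4:**
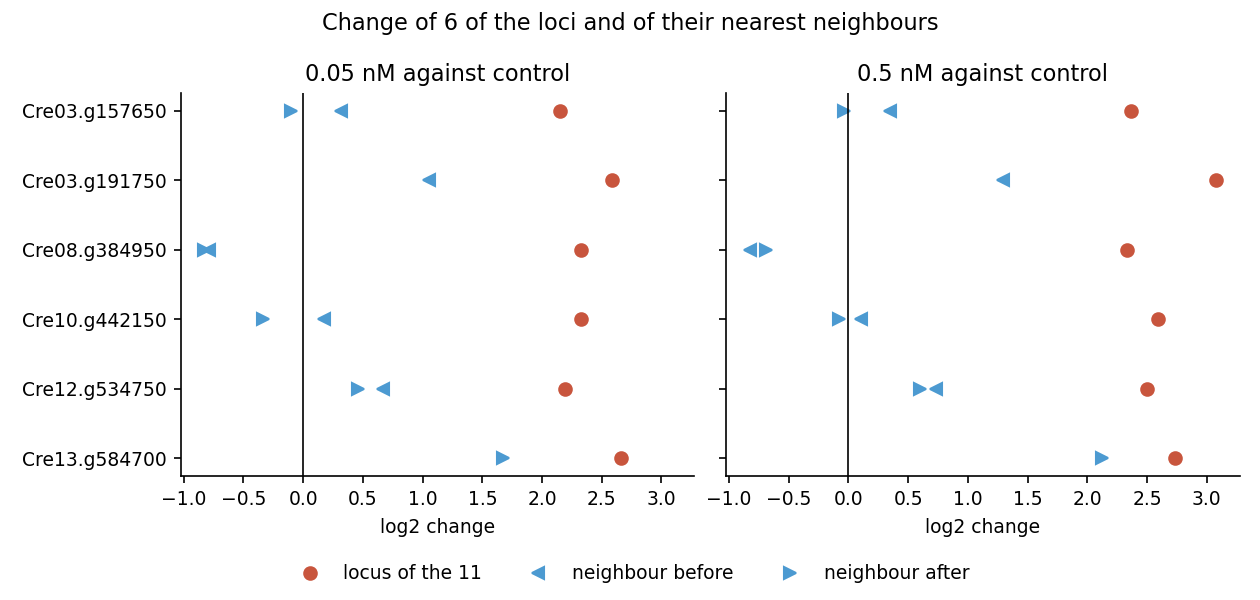
Log2 change against control (x axis) at 0.05 nM (left) and 0.5 nM (right) for the 6 loci found in the RefSeq table (circles). Triangles show the nearest entry of that table before and after each locus, where it was tested. Cre13.g584700 has no triangle before it and Cre03.g191750 none after it. The circles lie at 2.15 or more because those loci were chosen for their change, and nothing is read from their distance to the triangles. Among the triangles Cre13.g584750 lies farthest to the right, at 1.68 and 2.12.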

How the data were processed

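The authors deposited raw read counts per locus and library. Per the labels' protocols, RNA was taken up in TRI Reagent and libraries were made with a stranded mRNA kit. Per the submitters' processing notes, TopHat2 and HTSeq were used. For versions, build, annotation and strand setting the sources used here give nothing, so the count of a locus may include antisense reads. Of assigned, ambiguous and outside reads, 1.02% to 1.24% lay outside gene models and 0.264% to 0.331% were ambiguous; these lines were kept out.

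The authors' signed fold scores and FDR-corrected p-values come from their deposited table, per the file headers from an EDGE test.

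CPM used edgeR 4.0.16 TMM factors over all loci (R 4.3.3). Tests used filterByExpr, TMM and a robust quasi-likelihood fit to all 9 libraries with no term but the group (6 residual degrees of freedom), two-sided, with Benjamini-Hochberg adjustment over 14778 loci at 0.05; all 11 loci passed the filter. The same code was tested on simulated counts. Standard errors follow from the change and the F statistic. DESeq2 1.42.0, library totals alone, no filter, the replicate block, the treated libraries only and each library left out were tried. Same-numbered libraries deviated together across loci (correlations 0.104 to 0.63 for the 9 pairs, all above 0.1). The numbers were therefore taken to pair the samples in the block fit, while the main fit and its p-values leave that pairing out. Differently numbered libraries ran from -0.491 to 0.371, above some same-numbered pairs, so the pairing is weak for replicates 2 and 3; the labels do not say what they share. The series' design text calls the replicates biological without naming separate cultures, and p-values measure the spread between these libraries.

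The group, lists and tests were chosen with earlier results of these data known. Alternatives for the neighbours and for the median changes against control were chosen after seeing the data. With at most 40 loci in the group, all could be named, and the 3 loci nearest to each threshold were added. No products or sequences were in the tables used here, so product classes, motifs and proteins were not analysed.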

Additional observations from a re-analysis of the deposited data

How the results depend on the processing

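The membership of the group moved with the rule. It was 22 with library totals alone (all 11 and 11 others), 8 of the 11 with DESeq2's size factors, 0 with a control threshold of 0.25 CPM, 124 with 1 CPM, 101 with a treated threshold of 1 CPM and 0 with 4 CPM. With 1 library left out it ran from 7, without 0.05 nM replicate 3, to 20, without control replicate 1. Leaving out control replicate 2 kept 6 of the 11. Loci called between the doses numbered 0 with library totals alone, 653 (3.88%) with DESeq2 and 1328 (8.99%) with the replicate block. They numbered 55 (0.374%) in the treated libraries alone and 0 to 383 (0% to 2.58%) with 1 library left out. Of the 11 loci 1 was called with the block (g11602, 0.83), where 8.99% of all loci were. Under the other edgeR settings 0 of the 11 were called, where 0% to 2.58% of all loci were. Where no locus at all was called, nothing is read from the 0 of 11. DESeq2 gave none of the 11 an adjusted p. Under library totals alone the median change of the 11 was 2.57 at 0.05 nM and 2.78 at 0.5 nM, and neighbours called lower numbered 1 and 0. With 1 library left out the median at 0.05 nM was 2.22 to 2.37. Of 154 values of the dose difference of single loci, 9 changed sign, all with 1 library left out. The ranges were -0.032 to 0.26 for Cre13.g584700, -0.13 to 0.10 for Cre08.g384950, -0.16 to 0.27 for g3327, -0.055 to 0.31 for Cre12.g529300 and -0.038 to 0.25 for Cre17.g716100. The replicate block changed 1 other call, that of the neighbour Cre03.g157600. Neighbours that were not called changed sign too. With library totals alone Cre03.g157700 came to 0.16 and 0.25 and Cre10.g442200 to 0.20 at 0.5 nM. At 0.5 nM with 1 library left out the ranges were -0.13 to 0.060 for Cre03.g157700, -0.17 to 0.10 for Cre10.g442200 and -0.056 to 0.31 for Cre10.g442050. The cause was not tested. Control counts of 3 to 14 reads limit every ratio.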
